A study of Rattus norvegicus with 10 samples.

Results

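The genes described here are 10 components of interleukin-1, gp130 and TNF receptor signalling, taken as a list of named genes. The list was drawn up with earlier results of these data known, although no measured value enters the rule. They comprise the ligand Il1b, the receptor chains Il1r1, Il6r, Il6st, Osmr, Lifr, Tnfrsf1a and Tnfrsf1b, the transcription factor Stat3 and the feedback inhibitor Socs3. For each symbol the RefSeq RNA record with the highest mean count was taken. Of the 10 genes, 9 had a record among the 32041 in the count table, with 1 record each, and 8 had enough reads to be among the 22431 records tested.

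The study measured mRNA by sequencing (mRNA-Seq) in a rat model of acquired epilepsy after traumatic brain injury (TBI). All 10 animals were adult male Sprague-Dawley rats of 330 to 371 g at surgery, and no genetic change separated them. The 5 TBI rats received a lateral fluid percussion, a pressure pulse of 3.32 atm delivered to the intact dura over the left parietal lobe, and the 5 sham rats had the same anaesthesia and craniectomy without it. The left hippocampus was collected at 3 months, and the part holding CA3 and the dentate gyrus was used, which the sample labels call dorsal hippocampus. Anaesthesia and opening of the skull were therefore shared by both groups, no unoperated rat is in the comparison, and only males were studied. A single late time point was sampled, so these values describe the chronic stage and not the days after impact. Whether each injured rat had developed seizures is not given in the labels.

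Interleukin-1 beta signals through IL1R1 and its accessory protein to the adaptor MyD88 and the NF-kB factors. The IL-6 family cytokines all signal through gp130, the product of Il6st, which pairs with IL6R, OSMR or LIFR and activates STAT3 through JAK kinases; STAT3 in turn induces SOCS3, which blocks the same receptor complex. TNF binds TNFR1, which is found on most cells and carries a death domain, and TNFR2, which in brain is mostly found on microglia and endothelium. In injured brain these routes are known for their part in reactive astrocytes and microglia.

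Because STAT3 and NF-kB regulate parts of this system, a window around an annotated transcription start of each gene was searched. It ran from 250 bases before to 50 bases after that start. Both strands were searched for the STAT element TTCNNNGAA and for the 10-base kappaB consensus bound by NF-kB. The windows came from RefSeq on build GRCr8, which is not the build of the counts. For Il1r1, Il6r, Il6st, Lifr and Socs3 the window lay inside the span of the gene, away from its upstream end. The upstream ends of these genes were thus not searched. None of the 10 windows held the STAT element, against 8.87% of the 33469 windows of all genes. The kappaB consensus was in 3 of the 10 windows, against 7.51% of all windows. The 3 matches are shown with 10 bases on each side, on the gene's own strand, and the capitals mark the consensus. They lie at chr9:50034238-50034267 on the plus strand for Il1r1, at chr2:45810221-45810250 on the plus strand for Il6st, and at chr10:103694910-103694939 on the minus strand for Socs3.
Il1r1: cagagaccctGGAATGCCCCgcagggatgt
Il6st: gtctgttacaGGAGCATCCCttgcaagatg
Socs3: gcgggtcaaaGGGGTGCCCCaggcgctagg
All 3 matches thus lie in windows inside the span of the gene. Counted from the start used, the first base of the consensus was at position -135 in Il1r1, -161 in Socs3 and -1 in Il6st. A match of letters in a window is a description, and a window without a match says nothing about regulation from elsewhere.

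The libraries held 23425817 to 31671838 counts. Ribosomal RNA took 23.8% to 59.0% of the counts in sham rats and 12.5% to 25.5% in TBI rats, and sham rats 4 and 5 stood apart with 59.0% and 58.5%. Among all records tested, 0% passed an adjusted p of 0.05 in the quasi-likelihood test of edgeR, where the lowest adjusted p was 0.477. An unadjusted p under 0.05 was reached by 1769 records, of which 4.89% of all records were higher in TBI and 3% lower. The exact test of edgeR called 0 records after adjustment and 1705 without, and DESeq2 called 3 and 1660. All levels below are CPM, the counts of a record relative to the library size after TMM scaling and multiplied by 1000000, and all fold changes are log2 changes of TBI over sham.

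Of the 8 genes tested, 5 were higher and 3 lower in TBI, with a median log2 change of 0.11 beside -0.01 over all records. None passed the adjusted threshold in edgeR, with adjusted p from 0.485 to 0.965, and 1 of the 8, Tnfrsf1a, had an unadjusted p under 0.05. No gene had every TBI rat above every sham rat, a pattern found in 0.499% of all records. In bulk tissue, fewer cells of a type and less RNA per cell cannot be told apart.

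**Figure D1:**
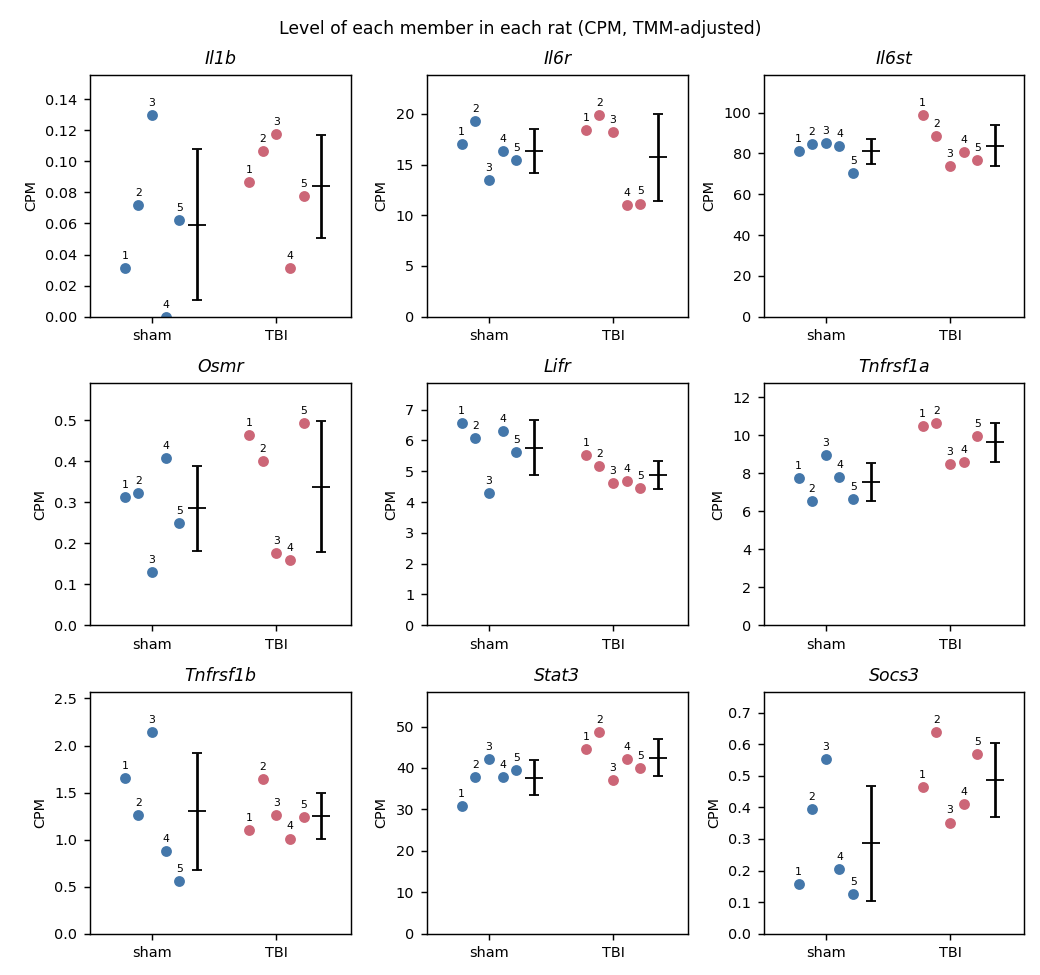
Level of 9 genes in each rat (vertical axes, CPM after TMM scaling, each starting at 0). Numbered points are the 5 sham and 5 TBI rats, and the bars give the mean with 1 SD. The groups overlap in every panel, and for Tnfrsf1a the overlap comes from sham rat 3 at 8.93 CPM.

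Il1b, the ligand of the IL-1 route, was close to the limit of detection. The sham rats had 1, 2, 4, 0 and 1 reads and the TBI rats 3, 4, 4, 1 and 3. Pooled over rats these were 8 reads in sham and 15 in TBI. The rate ratio per count outside ribosomal RNA was 1.41, with a 95% counting interval from 0.56 to 3.83. No difference was detectable at this depth (two-sided exact permutation p = 0.325). The other side of the pair, its receptor Il1r1, was not analysed here because no record was matched to it.

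Among the TNF receptors, Tnfrsf1a, which encodes TNFR1, showed the smallest p of the group. The sham rats had 7.74, 6.54, 8.93, 7.82 and 6.62 CPM. In the TBI rats it was 10.5, 10.6, 8.51, 8.57 and 9.97 CPM. All 5 TBI rats lay above the sham median, and 4 of the 5 sham rats lay below all TBI rats. Sham rat 3 alone overlapped, standing above TBI rats 3 and 4.

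The mean level of Tnfrsf1a was 7.53 ± 0.988 CPM in sham and 9.63 ± 1.03 CPM in TBI (SD, n = 5 each). The log2 change was 0.35 ± 0.11 (SE), with an interval from 0.12 to 0.58, which is 1.28-fold. The difference did not pass adjustment over all records (edgeR adjusted p = 0.485). Its unadjusted p was 0.00503, and the two-sided exact permutation p = 0.0238. When 1 rat was omitted at a time, the unadjusted p stayed under 0.05 in 10 of 10 fits, with log2 changes from 0.30 to 0.42. When the ribosomal RNA share entered the fit as a covariate, the log2 change was 0.30 and the unadjusted p 0.0514.

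Tnfrsf1b, which encodes TNFR2, did not share that pattern of values. The sham rats had 1.65, 1.26, 2.14, 0.884 and 0.562 CPM. The TBI rats had 1.10, 1.65, 1.26, 1.01 and 1.24 CPM. The sham rats spread wider than the TBI rats and enclosed all of them, with a coefficient of variation of 48.0% in sham. The log2 change was -0.13 ± 0.26 (SE; adjusted p = 0.934 in edgeR). Sham rats 4 and 5, with the highest ribosomal RNA share, were the lowest sham rats in Tnfrsf1b. With the ribosomal RNA covariate the log2 change was -0.62 with an unadjusted p of 0.0225, and without these rats it was -0.42 with an unadjusted p of 0.0755. The difference between the changes of Tnfrsf1a and Tnfrsf1b was not tested.

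**Figure D2:**
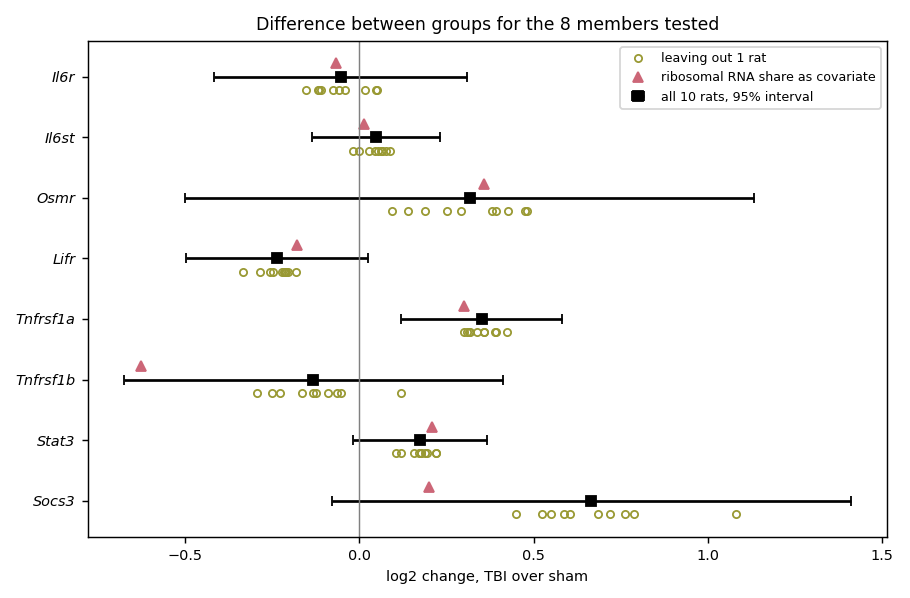
Log2 change of TBI over sham (horizontal axis) for the 8 genes tested. Squares with bars are the fit to all 10 rats with its 95% interval, triangles the fit with the ribosomal RNA share as covariate, and open circles the fits omitting 1 rat each. The interval lies above 0 for Tnfrsf1a, from 0.12 to 0.58, and includes 0 for the other 7 genes.

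None of the 4 gp130 receptor chains passed the test. Il6st, the signalling chain shared by the whole IL-6 family, had 81.3, 84.8, 85.1, 83.5 and 70.4 CPM in sham rats. In TBI rats it had 98.9, 88.4, 74.1, 80.8 and 76.9 CPM. TBI rats 1 and 2 lay above all sham rats and the other 3 lay within the sham range. Its log2 change was 0.05 ± 0.09 (SE), and the interval from -0.13 to 0.23 limits any change of the mean to within 0.911-fold and 1.17-fold.

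Il6r, the chain that binds IL-6 itself, had 17.0, 19.3, 13.5, 16.3 and 15.5 CPM in sham rats. In TBI rats the values were 18.4, 19.9, 18.2, 11.0 and 11.2 CPM. TBI rats 4 and 5 lay below every sham rat and the other 3 lay above the sham median. The coefficient of variation was 27.3% in TBI and 13.2% in sham. The log2 change was -0.05 ± 0.17 (SE; adjusted p = 0.965 in edgeR).

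Lifr, the receptor chain for leukaemia inhibitory factor and ciliary neurotrophic factor, had its values mostly lower in TBI but did not pass the test. The sham rats had 6.55, 6.07, 4.29, 6.32 and 5.62 CPM. In TBI rats it had 5.54, 5.16, 4.61, 4.68 and 4.45 CPM. Of the sham rats, 4 lay above every TBI rat, and sham rat 3 lay below every TBI rat. The mean was 5.77 ± 0.898 CPM in sham and 4.89 ± 0.450 CPM in TBI (SD, n = 5 each), with a two-sided exact permutation p = 0.111. The log2 change was -0.24 ± 0.12 (SE; adjusted p = 0.679 in edgeR), and without sham rat 3 it was -0.33 with an unadjusted p of 0.00886. It was -0.18 with the ribosomal RNA covariate (unadjusted p of 0.277) and -0.08 with scaling by the total count outside ribosomal RNA (unadjusted p of 0.602).

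Osmr, the oncostatin M receptor chain, was measured on few reads, from 4 to 10 in sham rats and from 5 to 19 in TBI rats. The sham rats had 0.312, 0.323, 0.130, 0.408 and 0.250 CPM. The TBI rats had 0.464, 0.399, 0.176, 0.158 and 0.492 CPM. TBI rats 1 and 5 lay above all sham rats, while TBI rats 3 and 4 lay among the lowest values. The log2 change of 0.32 ± 0.39 (SE) had an interval from -0.50 to 1.13, so a doubling could not be told from no change at this depth (adjusted p = 0.886 in edgeR).

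Stat3, the transcription factor that gp130 activates, had 30.9, 37.9, 42.2, 37.7 and 39.5 CPM in sham rats. Its level in TBI rats was 44.6, 48.7, 37.1, 42.1 and 40.1 CPM. TBI rats 1 and 2 were above every sham rat, and the others lay within the sham range. The log2 change was 0.17 ± 0.09 (SE), with an interval from -0.02 to 0.37 (adjusted p = 0.677 in edgeR; two-sided exact permutation p = 0.143). These are levels of its mRNA and not of the phosphorylated, active protein.

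Socs3, the feedback inhibitor that STAT3 induces, had the highest fitted change among the 8 genes and also one of the lowest read numbers. The sham rats had 5, 11, 17, 3 and 2 reads, which were 0.156, 0.395, 0.552, 0.204 and 0.125 CPM. The TBI rats had 16, 24, 12, 13 and 22 reads, which were 0.464, 0.639, 0.352, 0.411 and 0.570 CPM. All 5 TBI rats lay above the sham median, and sham rats 2 and 3 lay within the TBI range.

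The log2 change of Socs3 was 0.67 ± 0.35 (SE), with an interval from -0.08 to 1.41 (adjusted p = 0.683 in edgeR; two-sided exact permutation p = 0.0714). Pooled over rats, 38 reads in sham and 87 in TBI gave a rate ratio of 1.72 per count outside ribosomal RNA, without the TMM scaling of the fitted change. Its counting interval from 1.16 to 2.59 leaves out the spread between rats. Sham rats 4 and 5 had the highest ribosomal RNA share, and their Socs3 was among the 3 lowest. Omitting them gave a change of 0.43 with an unadjusted p of 0.267 in edgeR. The ribosomal RNA covariate gave 0.20 with an unadjusted p of 0.631. Without sham rat 3 the change was 1.08 with an unadjusted p of 0.00953. Of the 10 fits that omitted 1 rat, only that 1 had an unadjusted p under 0.05. The part of ribosomal RNA in the result was not tested.

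**Figure D3:**
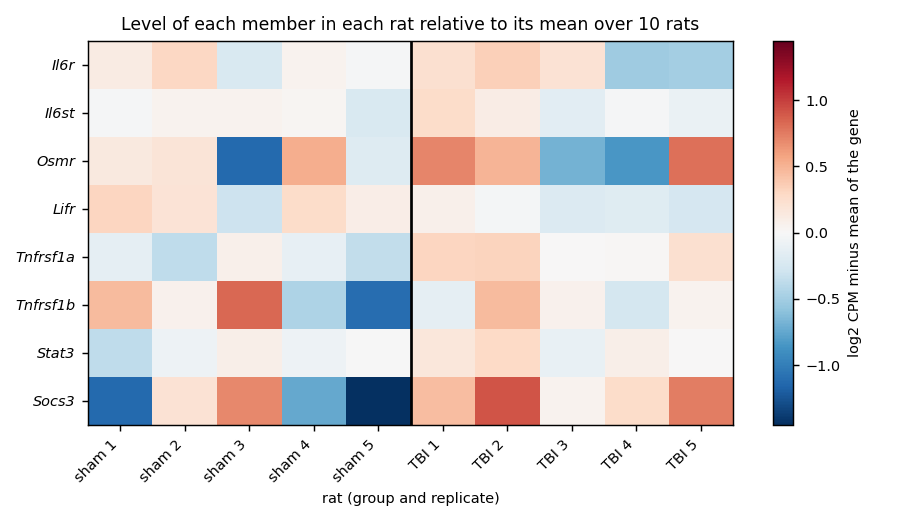
Level of the 8 tested genes (rows) in each rat (columns) as log2 CPM minus the mean of the gene over 10 rats, with red above and blue below that mean. Sham rat 3 stands at an end of the sham range in every row, and TBI rats 4 and 5 are the lowest 2 rats for Il6r.

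The rats at the ends of each group's range were counted over 9 genes. Some rat is always highest and some rat lowest in a group, and the same counts were not taken over all records. Sham rat 3 was at an end of the sham range in 9 of 9 genes, being highest in Il1b, Il6st, Tnfrsf1a, Tnfrsf1b, Stat3 and Socs3 and lowest in Il6r, Osmr and Lifr. TBI rat 3 was the lowest TBI rat in 4 genes, namely Il6st, Tnfrsf1a, Stat3 and Socs3, and TBI rat 4 in another 4, namely Il1b, Il6r, Osmr and Tnfrsf1b. TBI rat 2 was the highest TBI rat in 5 genes. Without sham rat 3, 4 of the 8 genes had an unadjusted p under 0.05 (Lifr, Tnfrsf1a, Stat3 and Socs3), while the share over all records went from 7.89% to 11.4%, and 0 of the 8 passed adjustment, with a lowest adjusted p of 0.128 in edgeR. Without sham rat 3 and TBI rat 3 together, a fit added after their values were seen, the same 4 genes had an unadjusted p under 0.05, beside 11.5% of all records. The lowest adjusted p of the 8 in that edgeR fit was 0.0641. Over all alternative fits the lowest adjusted p of the members ran from 0.0641 to 0.974.

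Whether partners in a pathway varied together between rats was examined after the mean of each group was removed, for 8 pairs. None passed adjustment over the pairs. The largest Pearson correlation was that of Tnfrsf1a with Tnfrsf1b, with r = 0.60 and rho = 0.38 (two-sided exact permutation p = 0.105 for r and 0.375 for rho, adjusted p = 0.505 and 0.751, n = 10). It was 0.49 without sham rats 2 and 5, the rats farthest from the median of Tnfrsf1a. Stat3 with Socs3 followed with r = 0.55 and rho = 0.51 (two-sided exact permutation p = 0.126 and 0.155, adjusted p = 0.505 and 0.751, n = 10), and r was 0.35 without sham rat 1 and TBI rat 2. Without sham rats 4 and 5, with the highest ribosomal RNA share, r was 0.87 for this pair (two-sided exact permutation p = 0.0222, not adjusted). Il6r with Il6st had r = 0.38, which was 0.13 without TBI rats 4 and 5. Osmr with Il6st had r = 0.34, which was 0.61 without sham rat 3 and TBI rat 4. Lifr with Il6st had a lower r of 0.32 (two-sided exact permutation p = 0.318, adjusted p = 0.623) and rho = 0.38 (two-sided exact permutation p = 0.298, adjusted p = 0.751, n = 10). Its r was 0.94 without sham rats 1 and 3 (two-sided exact permutation p = 0.00833, not adjusted). That was the highest r of any pair with 2 rats left out. The r values thus changed when 2 rats were left out together.

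The other genes of the same pathways were taken from a list of 88, of which 79 had a record and 72 were tested. In TBI 49 were higher and 23 lower, with a median log2 change of 0.12. An unadjusted p under 0.05 was reached by 16 higher genes and 2 lower genes, beside 4.89% and 3% of all records, and 0 passed adjustment in edgeR, where the lowest adjusted p was 0.484. The number of such genes was 4 of 72 with the ribosomal RNA covariate, beside 4.42% of all records in that fit. Only 3 of these 4 were among the 18 of the main fit. The number was 7 of 72 when sham rats 4 and 5, with the highest ribosomal RNA share, were omitted, beside 5.6% of all records. Of these 7, 6 were among the 18. In both fits all of them were higher in TBI. In the fit without sham rat 3 and TBI rat 3, which leaves out rats picked by their values, 6 genes passed adjustment (A2m, Bcl3, Gfap, Icam1, Lcn2 and Ptpn6), as did 320 of all records.

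Ligands were mostly scarce. Il6 had 3 reads over all 10 rats, Lif 20 and Osm 25, all under the count filter. Of the 4 gp130 ligands tested, the neurotrophic cytokines Ctf1 and Cntf had an unadjusted p under 0.05. Ctf1, cardiotrophin-1, was at 1.18 ± 0.351 CPM in sham and 1.82 ± 0.379 CPM in TBI (SD, n = 5 each), a log2 change of 0.57 (adjusted p = 0.536 in edgeR). Cntf was at 1.55 ± 0.521 and 2.26 ± 0.723 CPM (SD, n = 5 each), also a log2 change of 0.57 (adjusted p = 0.614 in edgeR). Both cytokines signal through complexes that hold LIFR and gp130.

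Of the 7 genes for IL-1 ligands and their processing, 5 were higher and 2 lower, and Pycard, the ASC adaptor of inflammasomes, had an unadjusted p under 0.05 with a log2 change of 0.39. Of 12 IL-1 receptors and adaptors tested, 8 were higher and 4 lower. Myd88, the adaptor of the IL-1 receptor, had a log2 change of 0.29, and Map3k7, which encodes the kinase TAK1, of -0.24, each with an unadjusted p under 0.05. For Map3k7, 4 sham rats lay above every TBI rat. Its highest levels, 22.1 and 21.7 CPM, were those of sham rats 4 and 5, with the highest ribosomal RNA share. With the ribosomal RNA covariate, 0 genes of the pathway list were lower at that p. The number was also 0 when these rats were omitted.

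Both gp130 family receptors tested outside the members were higher. Il11ra1, the IL-11 receptor chain, was at 14.1 ± 1.28 CPM in sham and 16.9 ± 1.67 CPM in TBI (SD, n = 5 each), a log2 change of 0.27 (adjusted p = 0.507 in edgeR). Of 5 JAK-STAT kinases and factors, 3 were higher and 2 lower. Of 7 JAK-STAT inhibitors, 4 were higher and 3 lower. Socs1, a relative of Socs3 that binds JAK kinases, had a log2 change of 0.59, and the phosphatase Ptpn6 of 0.36, each with an unadjusted p under 0.05.

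The TNF ligands and their shedding protease had no gene with an unadjusted p under 0.05 among 3 tested, and Ltb, lymphotoxin beta, had the smallest p at a log2 change of -0.39 ± 0.31 (SE). Of 8 TNF receptor adaptors, 6 were higher and 2 lower and none had an unadjusted p under 0.05. The smallest p was that of Fadd, the adaptor from death receptors to caspase-8, at a log2 change of 0.45 ± 0.24 (SE).

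Of 9 NF-kB factors, kinases and inhibitors tested, 8 were higher and 1 lower. Nfkb2, which encodes the p100 precursor of the noncanonical route, had 3.65, 3.27, 3.93, 3.13 and 2.94 CPM in sham rats. In TBI rats it had 4.20, 5.00, 3.67, 4.11 and 4.61 CPM. Sham rat 3 overlapped the TBI range and 4 of 5 TBI rats lay above all sham rats, with a log2 change of 0.34 ± 0.13 (SE; adjusted p = 0.548 in edgeR). Bcl3, a nuclear partner of the NF-kB p50 and p52 subunits, was at 0.390 ± 0.350 CPM in sham and 0.844 ± 0.220 CPM in TBI (SD, n = 5 each), a log2 change of 1.01 (adjusted p = 0.571 in edgeR).

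Of 15 known targets of STAT3 or NF-kB tested, 10 were higher and 5 lower, with 6 higher and 1 lower at an unadjusted p under 0.05. Lcn2, the iron-binding protein lipocalin-2, was at 0.420 ± 0.130 CPM in sham and 0.895 ± 0.377 CPM in TBI (SD, n = 5 each), a log2 change of 1.07 ± 0.33 (SE; adjusted p = 0.484 in edgeR). Icam1, a leukocyte adhesion molecule, had a log2 change of 0.46 ± 0.15 (SE), and Timp1, an inhibitor of matrix metalloproteinases, of 0.82 ± 0.29 (SE). For Lcn2, TBI rats 3 and 4 lay within the sham range, for Icam1 TBI rat 3 alone and for Timp1 TBI rat 4 alone.

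Serpina3n, a serine protease inhibitor, had a negative change, which rested on 3 of the sham rats. It had 0.0936, 0.108, 1.95, 2.65 and 3.62 CPM in sham rats 1 to 5. The TBI rats lay between 0.0798 and 0.235 CPM. Sham rats 1 and 2 were thus within the TBI range and sham rats 3, 4 and 5 above it, which gave a log2 change of -3.28 ± 1.03 (SE) and a two-sided exact permutation p = 0.151. Sham rats 4 and 5, with the highest levels, also had the highest ribosomal RNA share. With the ribosomal RNA covariate, 0 genes of the pathway list were lower at an unadjusted p under 0.05 in edgeR. The number was also 0 when these rats were omitted. The part of ribosomal RNA in these values was not tested. The gene belongs to a family of close copies, and whether reads were split among them in counting was not tested.

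**Figure D4:**
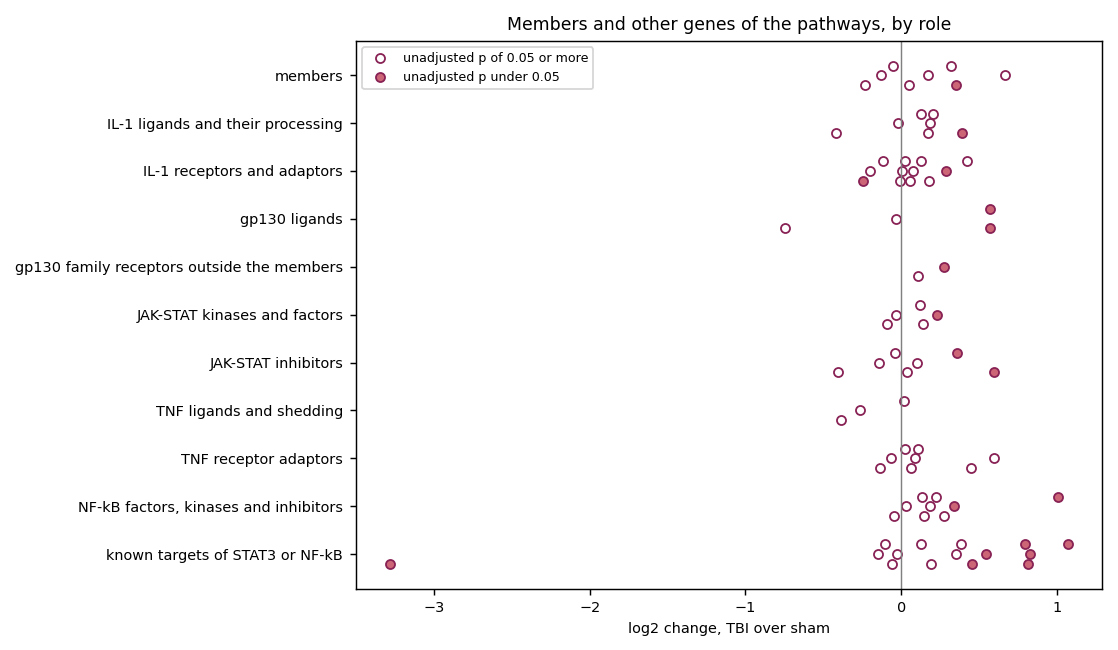
Log2 change of TBI over sham (horizontal axis) of the 8 tested members and of 72 other pathway genes, 1 point per gene, in rows by role. Filled points have an unadjusted p under 0.05, of which the members hold 1 and the other genes 18. The point at the far left is Serpina3n at -3.28.

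Markers of cell types that express these receptors varied between rats as well. Summed over 10 microglial markers the level was 192 to 304 CPM in sham and 232 to 324 CPM in TBI, with 9 of 10 genes higher in TBI and 3 at an unadjusted p under 0.05. Over 8 astrocyte markers it was 2290 to 3308 CPM in sham and 2496 to 4316 CPM in TBI, with 7 of 8 higher and 4 at an unadjusted p under 0.05. Gfap, which stands in both the astrocyte and the target list and was chosen after its values were seen, was at 1016 ± 346 CPM in sham and 1800 CPM on average in TBI, with a log2 change of 0.82 ± 0.27 (SE; adjusted p = 0.514 in edgeR). Sham rat 3 had the highest sum of both lists among sham rats, and TBI rat 3 the lowest among TBI rats. Both are among the 3 rats that overlapped for Tnfrsf1a. The other, TBI rat 4, had 278.6 CPM over the microglial and 3312 CPM over the astrocyte markers. These were the next lowest TBI sums after those of TBI rat 3. Any link between these sums and Tnfrsf1a was not tested.

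Endothelial and pericyte markers summed to 80.2 to 102 CPM in sham and 87.8 to 106 CPM in TBI, with 4 of 7 higher and 0 at an unadjusted p under 0.05. Meningeal and fibroblast markers summed to 6.25 to 19.9 CPM and 12.1 to 20.1 CPM, with 5 of 6 higher and 3 at that p. Choroid plexus markers summed to 5.91 to 34.8 CPM and 11.2 to 35.5 CPM, with 4 of 4 higher and 1 at that p. Blood markers summed to 44.6 to 82.1 CPM and 61.3 to 90.6 CPM, with 2 of 2 higher and 1 at that p, and monocyte and lymphocyte markers to 1.06 to 2.24 CPM and 1.17 to 3.88 CPM, with 2 of 2 tested higher and 0 at that p. Oligodendrocyte markers summed to 2146 to 3084 CPM in sham and 2195 to 2905 CPM in TBI, with 3 of 5 higher and 0 at that p.

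Markers of CA3 and dentate cells were present in every rat. Markers of CA3 pyramidal cells summed to 429 to 555 CPM in sham and 388 to 555 CPM in TBI, those of dentate granule cells to 54.5 to 190 CPM and 74.8 to 185 CPM, and those of neurons in general to 1604 to 1920 CPM and 1461 to 1737 CPM. No neuronal list had a gene at an unadjusted p under 0.05. Sham rat 1 had the lowest granule cell sum and the highest CA3 sum, at 54.5 and 555 CPM. No marker of any list was at 0 over all rats, and the part of these cell types in the values of the receptor genes was not tested.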

How the data were processed

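The authors isolated poly-A RNA from CA3 and dentate tissue of 10 rats, sequenced 36-base reads, aligned them with BWA to genome build RN4 and deposited raw read counts per RefSeq RNA record. Their methods state that mRNA of 3 control and 5 TBI rats was analysed, without naming the controls, and all 5 sham libraries were used here. They name an Ensembl annotation although the rows are RefSeq records. Use of strand in counting is not given in the sources used here.

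Symbols were taken from a RefSeq table of assembly GRCr8, used for names only, which named 54.2% of the 32041 RNA records. No record was paired with Il1r1, which was not analysed here. Unmapped reads (median 22.2% of the counts) were left out. Rows with a total count under 44, the 30th percentile, were dropped, as in the study's methods.

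TBI was compared with sham by the quasi-likelihood test of edgeR 4.0.16 in R 4.3.3 with TMM scaling, without covariates, over all 22431 rows, with Benjamini-Hochberg adjustment. Intervals of log2 changes are 95% intervals. CPM are counts times 1000000 over the TMM-scaled library size. Two-sided exact permutation tests used log2 CPM with a prior count of 2 and all 252 arrangements of the 10 rats, so no p could go below 0.00794. Rate ratios of pooled reads were taken per count outside ribosomal RNA, without TMM scaling, and their counting intervals cover counting error only. The edgeR fit was tested on simulated data.

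The members, the pathway list and the marker lists were chosen with earlier results of these data known. Outside the members, the text names in each role group every gene with an unadjusted p under 0.05, up to 4, or the gene with the smallest p where there was none. Beyond that rule, the text names Gfap and A2m, and the ligands Il6, Lif and Osm, which were under the count filter. Gfap was chosen after its values were seen. A2m is named only for the fit without sham rat 3 and TBI rat 3, where it passed adjustment. A gene that the rule would name is not reported here. Replicates were numbered by sample order, which pairs no rats. Alternatives were the edgeR exact test, DESeq2 1.42.0, other scalings, no filter on low counts, a covariate for the ribosomal RNA share, omitting the 2 sham rats with the highest ribosomal RNA share, summing rows per symbol and leaving out each rat. A fit without sham replicate 3 and TBI replicate 3 together was added after the data were seen.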

Additional observations from a re-analysis of the deposited data

Results flagged for a closer look

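In 78 groups of 5 rats, the highest or lowest rat was compared with the other 4 of its group by Dixon's criterion, which chance meets in about 1 of 20 groups, or 3.9 groups here, and 7 met it. Among the members this was Il6st in sham replicate 5, at 70.4 CPM beside 81.3 to 85.1 CPM in the other sham rats. Among the other pathway genes it was Icam1 in TBI replicate 3, at 3.02 CPM beside 4.46 to 5.00 CPM. The summed astrocyte markers stood apart in sham replicate 3, at 3310 CPM beside 2290 to 2460 CPM, and the summed choroid plexus markers in sham replicate 4, at 34.8 CPM beside 5.91 to 13.7 CPM. Sham replicate 1 stood apart in 3 neuronal sums, with general neuronal markers at 1920 CPM beside 1600 to 1690 CPM, dentate granule cell markers at 54.5 CPM beside 167 to 190 CPM, and CA3 markers at 555 CPM beside 429 to 453 CPM.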

How the results depend on the processing

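No member passed an adjusted p of 0.05 under any alternative that gave one (DESeq2 gave none for Osmr and Socs3). No other pathway gene did either, except in 1 fit added after the data were seen, without sham replicate 3 and TBI replicate 3 together. There 6 other pathway genes passed, and the members with an unadjusted p under 0.05 were 4, beside 11.5% of all records. Those rats were picked because their values stood nearest the other group, so the fit favours a difference and its p-values are too small. The number of members with an unadjusted p under 0.05 was 1 with all 10 rats and 1 to 4 when each rat was left out, reaching 4 without sham replicate 3 and 2 without either TBI replicate 1 or TBI replicate 3. The share over all records was 7.89% with all 10 rats and ran from 5.18% to 11.4% when each rat was left out, highest without sham replicate 3. The number of members was 3 with scaling by the total count outside ribosomal RNA, beside 12.9% of all records. That scaling raised the median of all records to 0.14. With the ribosomal RNA covariate the number of members was 1, beside 4.42% of all records, but the gene was Tnfrsf1b and not Tnfrsf1a. The number of other pathway genes at that threshold was 18, and was 4 with the covariate, 7 without sham replicates 4 and 5, whose ribosomal RNA share was highest, and 11 to 24 when each rat was left out. The shares over all records in these fits were 7.89%, 4.42%, 5.6% and 5.18% to 11.4%. The 11 came from omitting sham replicate 5 and, separately, TBI replicate 5. With scaling by the total count outside ribosomal RNA, 26 of its 27 were higher, as were 2798 of the 2902 records at that threshold among all records. The cause of these differences was not tested.

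Among single members, Il6r changed sign to 0.10 with that scaling, and ranged from -0.15 to 0.05 over the fits without 1 rat. Il6st ranged from -0.018 to 0.09 and Tnfrsf1b from -0.29 to 0.12, the last without sham replicate 3, and Tnfrsf1b was also at 0.12 without both rats numbered 3. The log2 changes of Osmr, Lifr, Tnfrsf1a, Stat3 and Socs3 kept their sign in all 19 alternatives. No pair of members passed adjustment in any alternative.

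Depth limited Il1b, Osmr and Socs3, with at most 4, 19 and 24 reads in a rat. Bcl3, Lcn2 and Serpina3n had low levels as well. Bcl3 was at 0.0625 CPM in sham replicate 5, where Il1b had the same level on 1 read. Lcn2 was at 0.272 CPM in sham replicate 4 and Serpina3n at 0.0798 CPM in TBI replicate 2. The ribosomal RNA share differed between the groups, and was addressed by the covariate and by omitting sham replicates 4 and 5. No paired analysis was possible because the replicates were numbered by sample order and the labels tie no sham rat to a TBI rat.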
